A study of Mus musculus with 11 samples.

Results

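The genes described here are 35 mouse targets of the tumour suppressor p53, listed by symbol and followed across otospheres (OS), cochlear sensory epithelia (CSE) and embryonic stem cells (ESCs). The list was made by gene name, with earlier results of these data known, so its shares against all genes describe the list only. Nabp1, Gadd45a, Sfn and Ptprv are also among genes that the authors drew from these arrays, with ESC arrays of other series added, as higher in ESCs and otospheres. Each gene was represented by the brightest of its probes, and that probe passed the filter on dim probes for all 35 genes, out of 18562 genes that passed and 20285 named genes with a probe on the array. Signal is given on the log2 scale, so that a difference of 1 is a doubling, and levels were compared between samples for 1 probe and never between genes.

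Otospheres are floating spheres that grow from dissociated cochlear cells. The question of the series was how their transcription differs from that of the tissue of origin and of a pluripotent cell. Otospheres and CSE came from ICR mice at postnatal day 1, with 10 mice and 20 cochleae in a preparation. The CSE was the dissected tissue itself, taken without culture, and it holds many cell types. The otospheres were secondary spheres of passage 1, grown for 4 or 5 days before and again after the passage in low-attachment plates, in DMEM-F12 with N2, B27, bFGF, IGF1 and heparan sulfate. They were strained for solid spheres before RNA was taken. The ESCs were the lines G4-2 (ES1) and D3 (ES2) at passage 13, grown with serum and LIF and without feeder cells. Their strain is not given in the labels. There was 1 array for each line, so the ESC group holds 2 different lines and no repeat of either. The labels name no DNA-damaging agent for any group. Culture and the change of cell makeup therefore went together in the otospheres and cannot be told apart by this design.

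The 11 arrays lay on 2 slides, slide 1 with ES1, OS1, OS2, OS3, CSE1 and CSE2, and slide 2 with ES2, OS4, OS5, OS6 and CSE3. OS1 and OS2 differed by less than the noise between spots of 1 probe, as did OS4 and OS5. Each pair was counted as 1 sample (OS1-2 and OS4-5), which left 4 otosphere, 3 CSE and 2 ESC samples. The labels do not say whether samples of a group came from separate litters or cultures, so p-values measure only the spread between these samples. In tissue and spheres, fewer cells of a type and less RNA per cell cannot be told apart. Of 7 hair cell and 7 supporting cell markers, 6 each were higher in CSE than in ESCs, and 1 supporting cell marker was lower. In this comparison 20.9% of all genes were higher and 20% lower. Of 7 pluripotency markers, 6 were lower in both otospheres and CSE than in ESCs, against 20.4% and 20% of all genes.

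p53 is a transcription factor that is held at a low level by the ubiquitin ligase MDM2 and accumulates after DNA damage and other stress. It binds DNA as a tetramer at sites built from a pair of short half-sites, and it raises genes that halt the cell cycle, repair DNA, drive cell death or feed back on p53 itself. Because p53 is regulated largely at the level of the protein, the mRNA of its targets is often read in place of p53 itself. Many of these genes also answer to other factors.

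Several of the promoters carry sequence of this kind. RefSeq promoter windows on GRCm38.p6, 250 bases before to 50 after a start site, were found for 27 of the 35 genes (37 windows). A p53 half-site, the standard 10-letter consensus, which equals its own reverse complement so that 1 search covers both strands, was present in 11 of the 37 windows (29.7%), against 8.36% of 32851 windows of all genes. These 11 windows belonged to 10 genes, and both windows of Aen held the same site. No window of the listed genes held 2 half-sites within 13 bases of each other, which was also rare among all windows (0.0731%). A match describes letters and not binding. The Sesn1 window lies at a start site inside the gene, which begins at chr10:41810574. Whether the transcript measured by the Sesn1 probe starts there was not examined. The sites of 6 genes that lie wholly before the start site are shown 5′ to 3′ with 20 bases on either side and the half-site in capitals, because they belong to the loop between p53 and its regulators (Trp53, Mdm2, Ccng1), to a gene with one of the clearest differences (Gadd45a), to the single gene that was lower in otospheres (Sesn1) and to a mitotic gene that split the otosphere samples (Ckap2).
Trp53, chr11:69580264-69580313, plus strand: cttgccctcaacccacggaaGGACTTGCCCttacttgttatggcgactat
Mdm2, chr10:117710915-117710964, minus strand: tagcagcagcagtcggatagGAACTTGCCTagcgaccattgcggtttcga
Ccng1, chr11:40755442-40755491, minus strand: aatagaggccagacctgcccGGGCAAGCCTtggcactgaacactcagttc
Gadd45a, chr6:67037418-67037467, minus strand: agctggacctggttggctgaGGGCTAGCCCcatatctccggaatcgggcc
Sesn1, chr10:41887246-41887295, plus strand: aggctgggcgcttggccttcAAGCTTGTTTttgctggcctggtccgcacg
Ckap2, chr8:22185993-22186042, minus strand: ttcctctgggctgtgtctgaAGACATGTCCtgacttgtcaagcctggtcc

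Between otospheres and CSE, 17 of the 35 genes were higher in otospheres, 1 was lower and 17 did not pass the test (limma, Benjamini-Hochberg adjusted p under 0.05 over 47997 probes). The share of the listed genes that was higher, 48.6%, stood against a background of 7.17% of 18562 genes, and the share that was lower, 2.86%, against 10.3%. The difference was above 0 for 33 of the 35 genes, with a median of 1.15, where the median over all genes was -0.01. All 4 otosphere samples lay above all 3 CSE samples for 24 genes, or below them for 1, against 14.1% and 18.9% of all genes. All 17 higher genes and Sesn1 were among these, so their direction within each slide was fixed by the lack of overlap. The count of higher genes depended on single samples: it was 10 without CSE1, 11 without CSE2 and 11 without OS4-5. Aen, Epha2 and Cd82 lost their calls without any 1 of OS1-2, OS4-5, OS6, CSE1, CSE2 and CSE3, and Trp53 and Plk3 without any of these but CSE3. Perp lost its call without OS4-5, CSE1, CSE2 or CSE3, and Psrc1 without CSE1 or CSE2. The adjusted p-values of the lost calls lay between 0.0503 and 0.18. Markers of cell types that the dissected tissue can hold moved in the same comparison: 6 of 7 supporting cell, 4 of 7 hair cell, 6 of 7 neuronal, 4 of 6 erythroid, 4 of 7 macrophage and 3 of 6 endothelial markers were lower in otospheres. Of 7 mesenchyme markers only 1 was lower, and of 4 glia markers 2 were lower and 1 was higher. The share of all genes that was lower was 10.3%. The centred mean of the supporting cell markers was -1.32 to -0.98 in otospheres and 1.73 to 2.07 in CSE, and that of the neuronal markers -2.58 to -1.54 and 1.84 to 2.83. Their part in the differences of the p53 targets was not tested. The genes called higher under all 20 alternative settings were Ccng1, Phlda3, Gdf15, Eda2r, Fas, Tnfrsf10b, Gadd45a, Sfn and Nabp1.

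**Figure D1:**
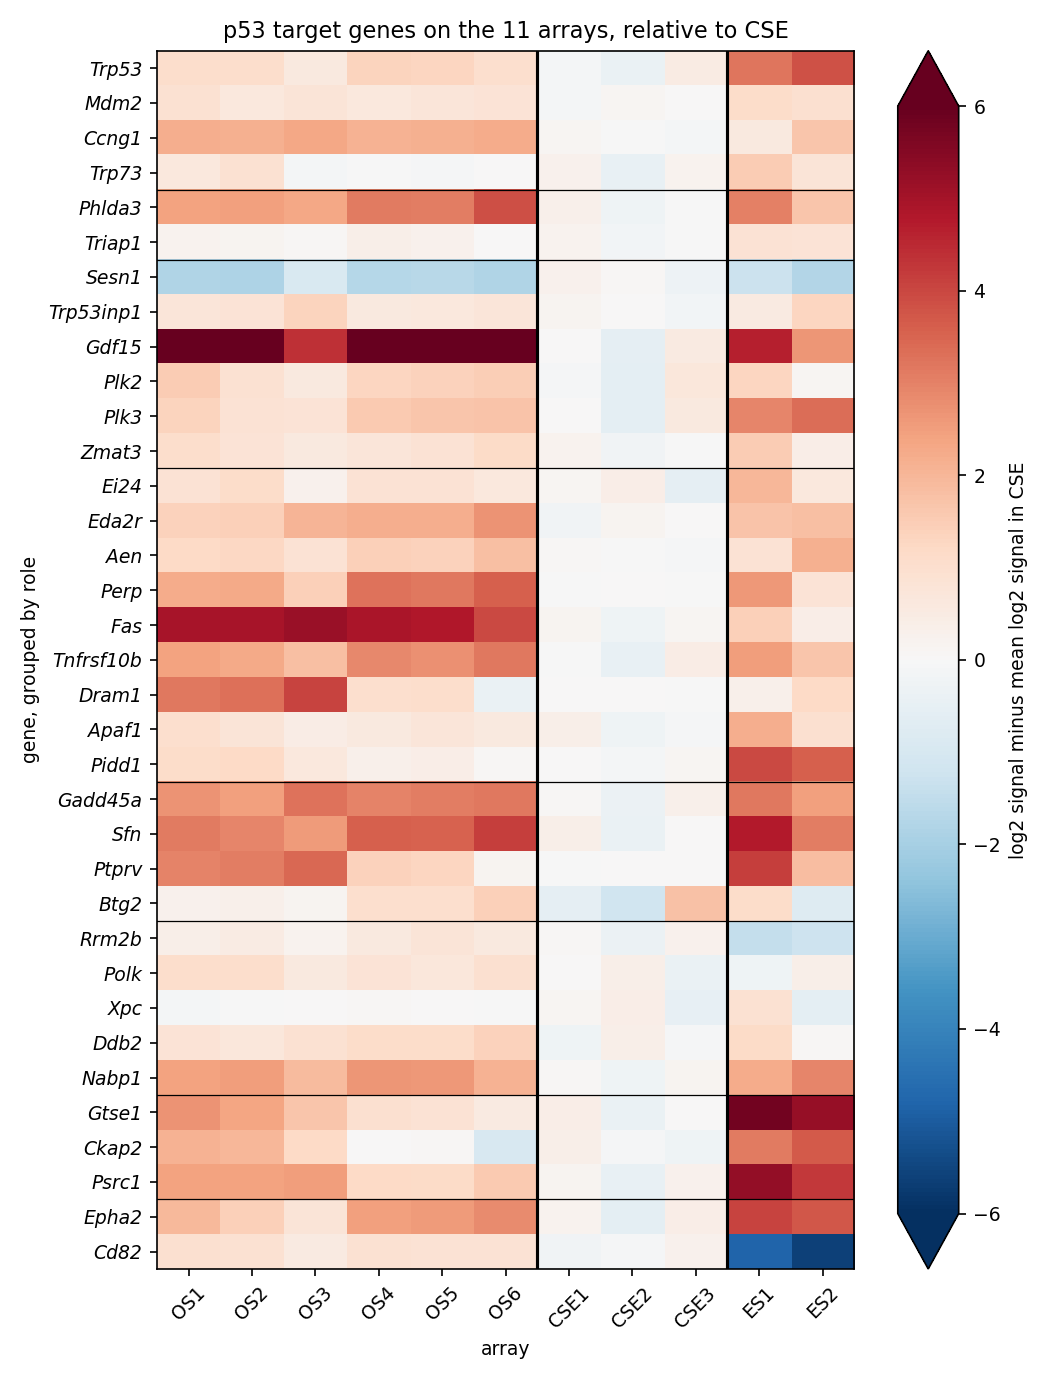
Log2 signal of the 35 p53 target genes (rows, grouped by role) on each of the 11 arrays (columns), relative to the gene's mean in CSE. Red is above and blue below the CSE mean, with the colour saturating at 6. The 6 otosphere columns are red for most genes, with Sesn1 blue, and the ESC columns are red for most genes, with Cd82, Sesn1 and Rrm2b blue.

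**Figure D2:**
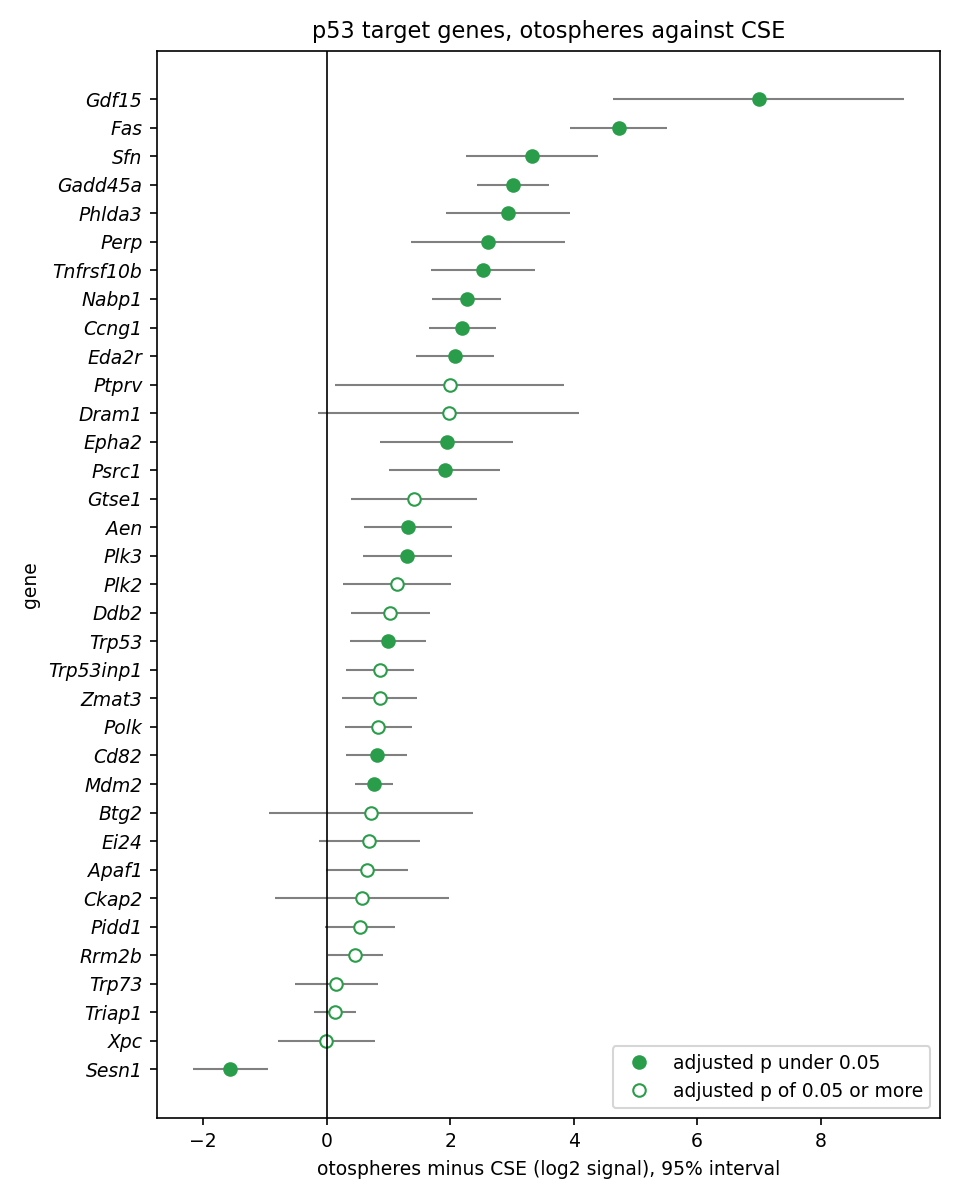
Difference in log2 signal between otospheres (4 samples) and CSE (3 samples) for each of the 35 genes, with its 95% interval from the limma fit. Filled points passed the test at an adjusted p under 0.05 and open points did not. Gdf15 (7.0) and Fas (4.73) lie farthest to the right, and Sesn1 (-1.56) alone lies well to the left of 0.

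Of the genes of the p53 loop, Trp53 and Mdm2 had differences under 1 and Ccng1 had one over 2. Trp53, which encodes p53, had a log2 signal of 8.27 in OS1-2, 7.83 in OS3, 8.55 in OS4-5 and 8.25 in OS6, against 7.13, 6.85 and 7.72 in CSE1, CSE2 and CSE3. Every otosphere sample lay above every CSE sample, though OS3 and CSE3 were close. The difference was 0.99 (SE 0.27, adjusted p = 0.048), and it passed the test under 8 of 20 alternatives, some of which are the same fit. The call is near its threshold. In the deposited log2 table it was 0.52 (adjusted p = 0.17). Mdm2 was tight within each group, with 13.35, 13.36, 13.25 and 13.41 in the otosphere samples and 12.45, 12.69 and 12.59 in CSE. This gap of 0.77 (SE 0.14, adjusted p = 0.0079) was small and clear of the spread in both groups. Ccng1, a cyclin-related p53 target that acts back on MDM2, reached 12.31, 12.47, 12.28 and 12.38 in otospheres and 10.30, 10.13 and 10.05 in CSE. Its difference of 2.20 (SE 0.24, adjusted p = 0.00072), a 4.59-fold rise, was nearly the same on slide 1 (2.18) and slide 2 (2.27). Trp73, the family member p73, did not pass the test (difference 0.16, 95% interval -0.52 to 0.83).

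**Figure D3:**
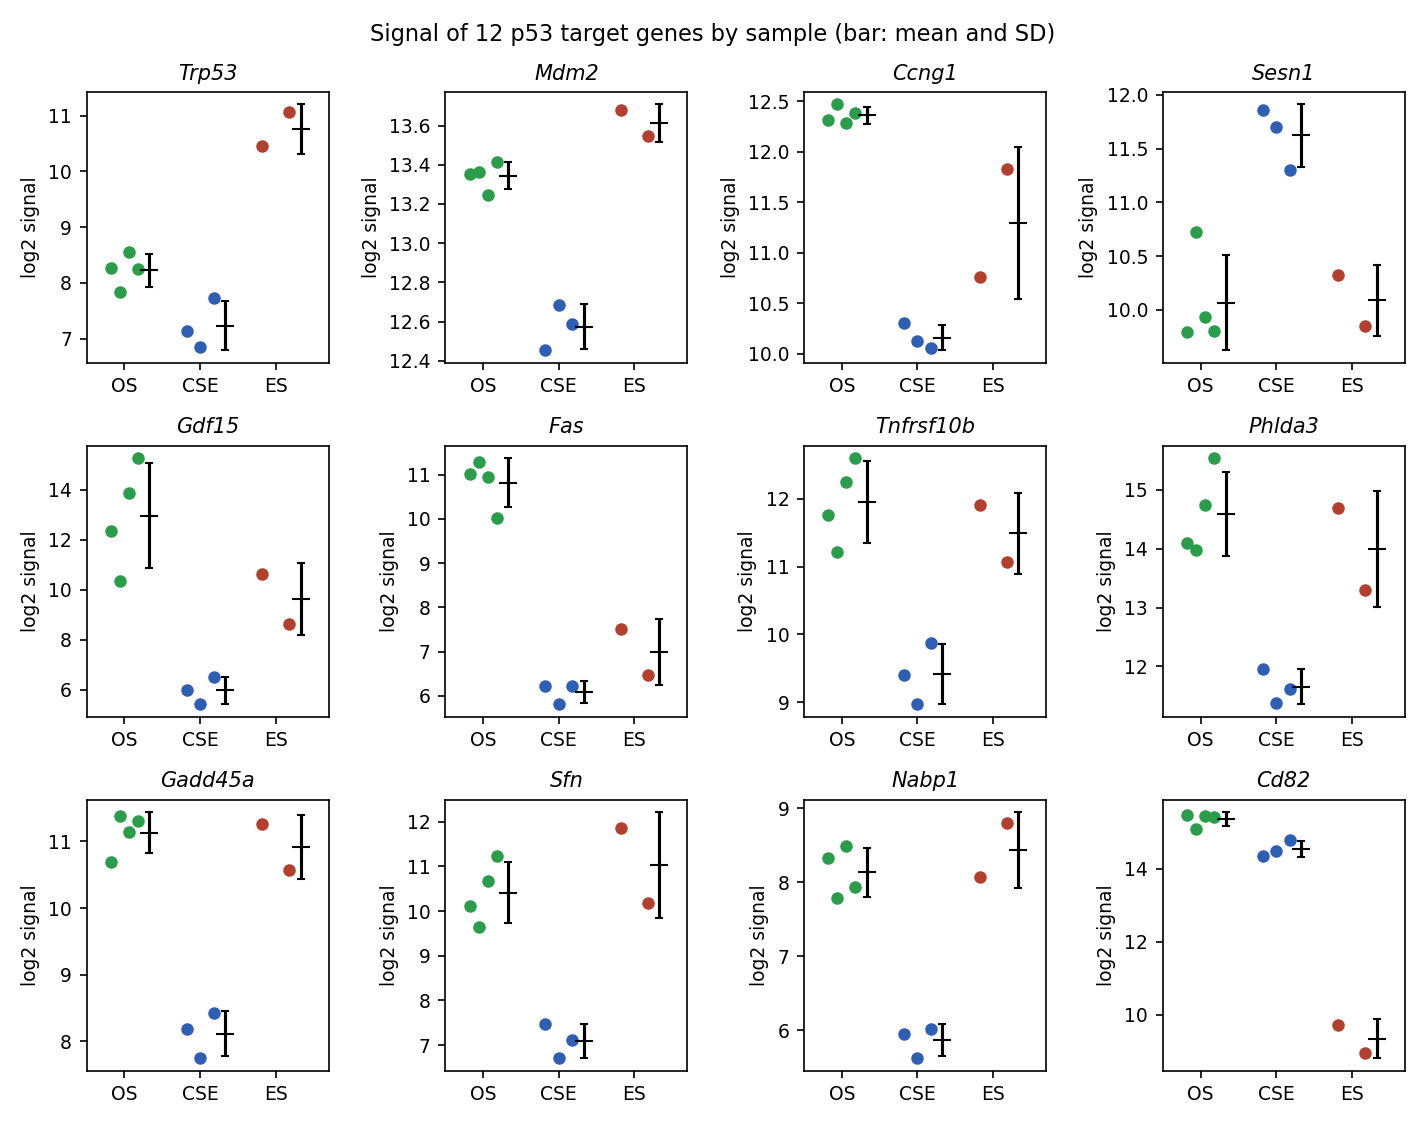
Log2 signal of 12 p53 target genes in each otosphere (OS, 4 samples), CSE (3) and ESC (2) sample. Points are samples, and the bar beside them is the group mean with its SD. Otosphere points lie above all CSE points in 11 panels and below them for Sesn1, and the ESC points of Fas and Cd82 lie far below the otosphere points.

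Of the genes known for stress signalling, the secreted cytokine gene Gdf15 had the largest difference of the list. It had a log2 signal of 12.36, 10.35, 13.88 and 15.26 in OS1-2, OS3, OS4-5 and OS6, and 5.98, 5.41 and 6.51 in CSE. The groups lay far apart even though the otosphere samples themselves ranged over nearly 5 log2 units. The difference was 7.0 (SE 1.04, adjusted p = 0.0032), 128-fold, with 5.66 on slide 1 and 8.06 on slide 2, and it ran from 5.72 to 7.87 over the alternatives. Phlda3, a target that restrains AKT, had 14.10, 13.99, 14.75 and 15.54 in otospheres and 11.96, 11.37 and 11.62 in CSE, a difference of 2.94 (SE 0.44, adjusted p = 0.0034). Plk3, a polo-like kinase of the stress response, was higher by 1.31 (SE 0.32, adjusted p = 0.031). Its relative Plk2 (1.15, adjusted p = 0.10), the RNA-binding protein gene Zmat3 (0.86, adjusted p = 0.081), the autophagy and death regulator Trp53inp1 (0.86, adjusted p = 0.055) and the survival factor gene Triap1 (0.14, adjusted p = 0.73) did not pass the test.

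Sesn1, a sestrin that restrains growth signalling under stress, went the other way. Its log2 signal was 9.80 in OS1-2, 10.72 in OS3, 9.94 in OS4-5 and 9.81 in OS6, against 11.86, 11.70 and 11.30 in CSE. OS3 stood above the other otosphere samples and still lay below every CSE sample. The difference was -1.56 (SE 0.27, adjusted p = 0.0068), 2.94-fold lower in otospheres, with -1.52 on slide 1 and -1.43 on slide 2. Sesn1 was also higher in CSE than in ESCs (1.53, adjusted p = 0.0069), as were Rrm2b and Cd82.

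The receptors of the death pathway were among the clearest differences. Fas, the death receptor for FAS ligand, had a log2 signal of 11.02, 11.29, 10.94 and 10.03 in the otosphere samples and 6.23, 5.81 and 6.22 in CSE. The difference of 4.73 (SE 0.35, adjusted p = 0.00012) amounted to 26.5-fold, and the otosphere and CSE samples were separated by more than 3 log2 units. In the deposited log2 table the difference was smaller, 2.57 (adjusted p = 0.00036). Tnfrsf10b, the mouse TRAIL receptor gene, had 11.76, 11.21, 12.24 and 12.60 in otospheres and 9.40, 8.97 and 9.87 in CSE, a difference of 2.54 (SE 0.37, adjusted p = 0.0030). Eda2r, the receptor for ectodysplasin A2, was not well above background on any CSE array and had 6.34, 7.0, 7.12 and 7.62 in otospheres, at least 4.18-fold higher there at the background offset of 16 (adjusted p = 0.0019). That bound depends on the offset and on the probe: the fitted difference was 2.08, and 1.35 with an offset of 50, and the other probe of Eda2r was at least 2.43-fold higher (adjusted p = 0.013).

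The other death genes were mixed. Perp, a membrane protein of desmosomes that also acts in p53-dependent death, had 13.52, 12.72, 14.50 and 14.87 in otospheres and 11.26, 11.33 and 11.28 in CSE. Its difference was 2.61 (SE 0.55, adjusted p = 0.017), and all otosphere samples were above all CSE samples. Aen, a nuclease that acts in apoptosis, was higher by 1.32 (SE 0.32, adjusted p = 0.029), and its other probe was called as well (1.22, adjusted p = 0.033). Apaf1, the scaffold of the apoptosome (0.65, adjusted p = 0.24), Ei24 (0.69, adjusted p = 0.32) and Pidd1, a scaffold for caspase-2 activation (0.55, adjusted p = 0.24), did not pass. Dram1, a lysosomal protein of autophagy, was high in some otosphere samples only: 8.53 in OS1-2 and 9.35 in OS3, but 6.35 in OS4-5 and 4.89 in OS6, against 5.30, 5.31 and 5.29 in CSE. Its groups overlapped, and the difference of 1.98 did not pass (SE 0.93, adjusted p = 0.26).

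Among the genes that halt the cell cycle, Gadd45a, a growth arrest and stress sensor gene, had 10.69, 11.38, 11.15 and 11.30 in otospheres and 8.18, 7.74 and 8.42 in CSE. The gap of 3.01 (SE 0.26, adjusted p = 0.00023), 8.08-fold, was the same size on slide 1 (3.07) and slide 2 (2.81). Sfn, which encodes 14-3-3 sigma and holds cells in G2, had 10.12, 9.64, 10.68 and 11.23 in otospheres and 7.46, 6.70 and 7.12 in CSE, a difference of 3.32 (SE 0.47, adjusted p = 0.0026) that was 10-fold. Both genes kept the groups apart by at least 2 log2 units. By qPCR the authors found Gadd45a and Nabp1 raised in ESCs and otospheres. For Sfn and Ptprv their qPCR gave no significant difference of CSE from either ESCs or otospheres. Ptprv, a tyrosine phosphatase gene, was not well above background on any CSE array and had 8.21, 8.64, 6.51 and 5.33 in OS1-2, OS3, OS4-5 and OS6, at least 3.98-fold higher in otospheres, while its other probe gave at least 1.72-fold. That difference did not pass the test (adjusted p = 0.19), but did with slide as a block (adjusted p = 0.033).

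Btg2, an antiproliferative gene that also answers quickly to growth signals, did not separate the groups. Its signal was 10.41, 10.30, 11.15 and 11.55 in otospheres and 9.59, 8.92 and 11.91 in CSE1, CSE2 and CSE3. CSE3 was the highest sample of all and the only CSE sample above the otospheres. The difference was 0.71 (SE 0.73, 95% interval -0.94 to 2.37, adjusted p = 0.70), with 1.10 on slide 1 and -0.56 on slide 2. Immediate early genes moved with CSE3: the mean of 11 such genes, each centred on its own mean, was 2.31 in CSE3, -1.69 in CSE1 and -2.27 in CSE2, and between 0.21 and 1.22 in the otosphere samples. In CSE3 the mean is over 10 genes, since 1 probe had an outlying spot there. Of these genes, 2 of 11 were called higher in otospheres than in CSE. Jun, one of the brightest, had 15.27 in CSE3 and 11.73 and 11.65 in CSE1 and CSE2. Egr1 had 14.67 against 10.66 and 9.71, and Nr4a1 had 15.88 against 12.68 and 11.93. Without CSE3 the difference of Btg2 was 1.60 (adjusted p = 0.17), that of Plk2 was 1.48 (adjusted p = 0.073) and that of Plk3 was 1.59 (adjusted p = 0.027), compared with 1.15 for Plk2 and 1.31 for Plk3 with all samples. Whether the immediate early genes have a part in these values was not tested.

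**Figure D4:**
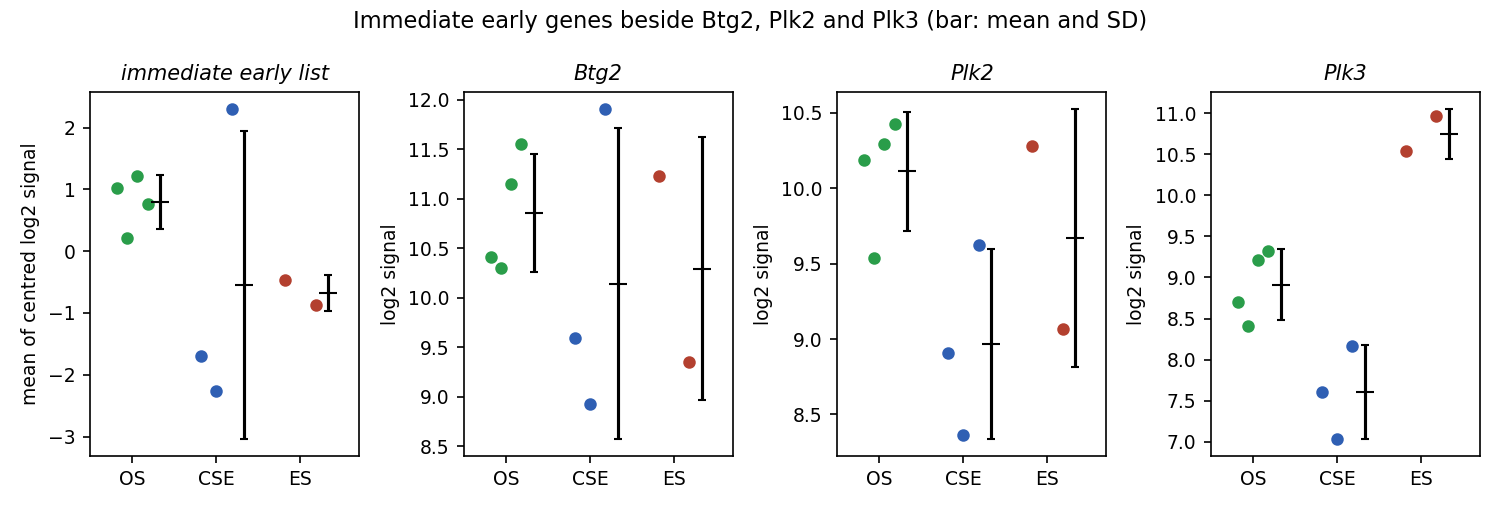
Centred mean log2 signal of the immediate early list (up to 11 genes a sample) and log2 signal of Btg2, Plk2 and Plk3 in each otosphere (OS), CSE and ESC (ES) sample, with group mean and SD beside the points. CSE3 is the highest CSE point in every panel and the highest of all 9 samples for the list and for Btg2.

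Of the 5 repair genes, 1 passed the test. Nabp1, a single-stranded DNA binding protein, had 8.32, 7.78, 8.49 and 7.93 in otospheres and 5.95, 5.62 and 6.02 in CSE, a difference of 2.27 (SE 0.25, adjusted p = 0.00074) with 2.27 and 2.19 on the slides. The damage recognition gene Ddb2 (1.03, SE 0.28, adjusted p = 0.05015) and the translesion polymerase gene Polk (0.84, SE 0.24, adjusted p = 0.057) lay just outside the threshold. Another probe of Polk was called (1.01, adjusted p = 0.031). The p53-inducible ribonucleotide reductase subunit gene Rrm2b did not pass (0.47, adjusted p = 0.20). Xpc, the partner in recognising damage, had a difference of 0.00 (95% interval -0.79 to 0.78, adjusted p = 0.998), which leaves room for changes below 1.

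On the cell surface, the receptor tyrosine kinase gene Epha2 had 10.78, 9.89, 11.63 and 11.94 in otospheres and 9.32, 8.51 and 9.51 in CSE. Its difference was 1.95 (SE 0.47, adjusted p = 0.031), and every otosphere sample was above every CSE sample. Cd82, a tetraspanin that restrains motility, had 15.49, 15.09, 15.45 and 15.43 in otospheres and 14.36, 14.50 and 14.80 in CSE. The difference of 0.81 (SE 0.22, adjusted p = 0.048) did not pass with slide as a block (adjusted p = 0.064) and for both other probes of Cd82 (0.79, adjusted p = 0.25, and 0.81, adjusted p = 0.10). Perp, Sfn and Epha2 are strongly expressed in epithelium, and 7 of 9 epithelial markers were also higher in otospheres, against 7.17% of all genes. The other 2 had differences below 0 that did not pass, and the median of the list was 2.07. Krt18, among the brightest, had 18.54, 17.47, 18.59 and 18.51 in otospheres and 14.07, 14.34 and 15.17 in CSE. The centred epithelial mean was 0.24 to 1.45 in otospheres and -1.24 to -0.65 in CSE, and its part in these 3 differences was not tested.

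The mitotic members split the otosphere samples. Gtse1, which acts in G2 and restrains p53, had 9.30 in OS1-2, 8.41 in OS3, 7.67 in OS4-5 and 7.30 in OS6, against 7.13, 6.34 and 6.77 in CSE. Ckap2, a spindle protein gene, had 9.93, 9.07, 7.93 and 6.92 in the same otosphere samples and 8.22, 7.81 and 7.63 in CSE. Both were highest in OS1-2 and lowest in OS6, and OS6 fell below every CSE sample for Ckap2. Neither passed the test (Gtse1 1.42, adjusted p = 0.084; Ckap2 0.57, adjusted p = 0.72), though Gtse1 did with slide as a block (adjusted p = 0.035). Psrc1, a spindle-associated protein gene, had 9.73, 9.81, 8.48 and 8.86 in otospheres and 7.49, 6.88 and 7.55 in CSE, a difference of 1.91 (SE 0.39, adjusted p = 0.015). Proliferation genes moved with Gtse1 and Ckap2. The centred mean of 12 proliferation genes was 0.84 in OS1-2, -0.31 in OS3, -1.16 in OS4-5 and -2.70 in OS6, and -0.75 to -0.19 in CSE, and 0 of the 12 were called between otospheres and CSE by limma, with 0 at an unadjusted p under 0.05. Birc5, the brightest of them on average, had 13.96, 12.75, 11.82 and 10.06 in those otosphere samples. Whether proliferation accounts for the mitotic members was not tested.

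The otosphere samples differed among themselves. The range over the 4 samples had a median of 0.91 for the 35 genes and 0.64 for all genes, and it exceeded 1 for 15 of the 35 (42.9%) against 26.6% of all genes. Both OS4-5 and OS6, on slide 2, lay above both OS1-2 and OS3 for 13 of the 35 genes and below them for 8, against 32.3% and 21.7% of all genes, so the split as such is near the background. The share of all genes with a mean shift of over 1 was not computed, so the shifts of that size describe single genes. Gdf15 (3.22), Perp (1.56), Epha2 (1.44), Phlda3 (1.10) and Sfn (1.08) were higher on slide 2. Dram1 (-3.32), Ptprv (-2.51), Ckap2 (-2.07), Gtse1 (-1.37) and Psrc1 (-1.1) were lower there. Hair cell and mesenchyme markers moved with this split, while the centred mean of the supporting cell markers stayed between -1.32 and -0.98. The centred mean of the hair cell markers was -0.80 in OS1-2 and -1.48 in OS3, and 0.15 in OS4-5 and 0.68 in OS6. That of the mesenchyme markers was 1.35, 2.06, 0.22 and -1.82 in the same samples. Their part in the split was not tested. Slide and preparation cannot be told apart here, since each slide holds its own otosphere samples.

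**Figure D5:**
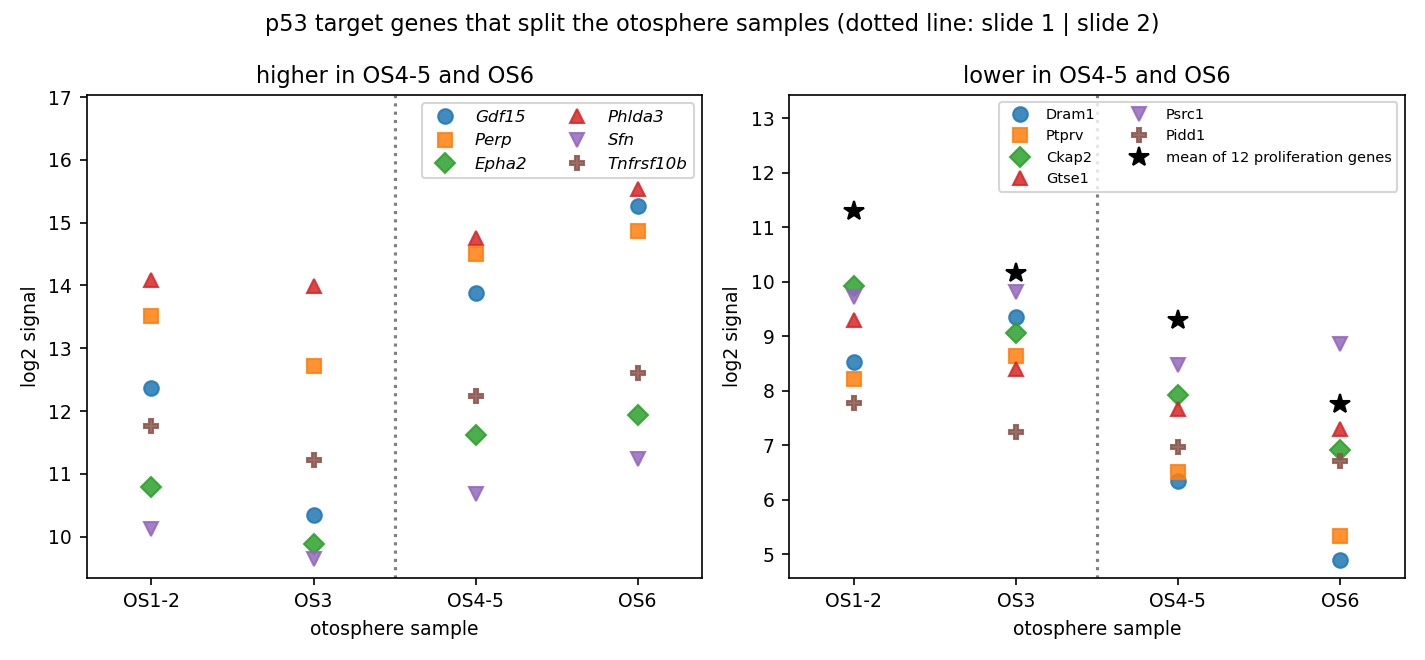
Log2 signal of p53 target genes in the 4 otosphere samples, with slide 1 left and slide 2 right of the dotted line. The 6 genes of the left panel were picked as higher in OS4-5 and OS6, and the 6 of the right panel as lower there. The star in the right panel is the mean of 12 proliferation genes, which falls from 11.31 in OS1-2 to 7.76 in OS6.

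The comparisons with ESCs use the same otosphere and CSE samples, so they are given side by side and are not independent. In otospheres against ESCs, 4 genes were higher and 8 were lower, with a median difference of -0.10, against backgrounds of 18.4% higher and 20.4% lower. The listed shares, 11.4% and 22.9%, stood near those. In CSE against ESCs, 3 genes were higher and 22 lower, with a median of -1.51, against backgrounds of 20.9% and 20%. Of the listed genes 62.9% were lower in CSE. The samples did not overlap for 5 higher and 11 lower genes between otospheres and ESCs, against 25.9% and 28.9% of all genes, and for 3 higher and 27 lower genes between CSE and ESCs, against 31.6% and 31.7%. Every called gene was without overlap in its comparison, so its direction within each slide was fixed by that.

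Trp53 itself was highest in ESCs. Its log2 signal was 10.45 in ES1 and 11.07 in ES2, which put it 2.53 above otospheres (adjusted p = 0.00039) and 3.53 above CSE (adjusted p = 9.0e-05). In the deposited log2 table these gaps were smaller, with differences of -1.33 and -1.85 from ESCs, and both still passed. The mitotic genes were also highest in ESCs. Gtse1 had 12.53 and 11.98 in ES1 and ES2, 17.0-fold above otospheres (adjusted p = 0.00046) and 45.6-fold above CSE (adjusted p = 0.00013), and 11 of the 12 proliferation genes were also lower in otospheres than in ESCs. Ckap2, Psrc1, Pidd1, Plk3, Epha2 and Triap1 were lower in otospheres than in ESCs as well, with differences from -3.21 (Pidd1) to -0.69 (Triap1).

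The genes higher in otospheres than in ESCs were Ccng1, Fas, Rrm2b and Cd82. Cd82 had 9.72 and 8.96 in the ESC samples, so that otospheres were 65.0-fold (difference 6.02, adjusted p = 1.4e-06) and CSE 37.0-fold (5.21, adjusted p = 3.9e-06) above them. Its other probes gave smaller values, with differences of 4.96 and 2.85 for otospheres. Fas had 7.51 and 6.46 in ESCs, 14.2-fold below otospheres (difference 3.83, adjusted p = 0.00017), or 2.06 in the deposited log2 table. Rrm2b was not well above background on either ESC array, and its signal was at least 3.47-fold higher in otospheres (adjusted p = 0.00045) and at least 2.51-fold higher in CSE (adjusted p = 0.0028) at the offset of 16. With an offset of 50 the differences were 1.19 and 0.84, and the other probe of Rrm2b passed in neither comparison (1.14, adjusted p = 0.075, and 0.35, adjusted p = 0.62). For Gdf15, ES1 and ES2 had 10.63 and 8.61, and the differences of otospheres (3.34, adjusted p = 0.066) and CSE (-3.66, adjusted p = 0.056) from ESCs did not pass. The 3 probes of Trp73 had lower signal in otospheres than in ESCs but differed in whether they passed. The brightest did not (-0.99, adjusted p = 0.058), although its samples did not overlap. Its other probes were not well above background in otospheres or CSE and put ESCs at least 6.72-fold (adjusted p = 0.0012) and at least 3.97-fold (adjusted p = 0.0019) above otospheres. These bounds hold at the offset of 16.

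Other genes of the pathway, drawn from lists of 20 upstream regulators and 20 further targets, were tested in the same fit. These lists were also made with earlier results of these data known, so their counts describe the lists only. The authors had reported Pmaip1, Bcl6, Cdkn1a and Ppp1r13l as higher in otospheres, alone or together with ESCs. Their data were these arrays with ESC arrays of other series added. Of the regulators, 1 of 20 was higher in otospheres than in CSE and 0 were lower by limma, with 2 higher and 2 lower at an unadjusted p under 0.05. These shares, 5% and 0%, stood against 7.17% and 10.3% of all genes. The called gene was Ppp1r13l, which encodes iASPP, an inhibitor of p53, with 11.53, 11.26, 12.37 and 12.69 in otospheres and 9.31, 8.19 and 9.27 in CSE (difference 3.04, SE 0.41, adjusted p = 0.0021). Of the 20 further targets, 7 were higher (35%) and 1 was lower (5%), against the same backgrounds, with a median difference of 1.05. At an unadjusted p under 0.05, 11 were higher and 2 lower. Pmaip1, the death gene for NOXA, had 10.36, 9.43, 12.49 and 13.42 in otospheres and was not well above background on any CSE array. At the background offset used here it was at least 71.1-fold higher in otospheres (adjusted p = 0.0023). Bcl6, a repressor of p53 and of differentiation, was higher by 3.93 (adjusted p = 0.0012), and Cdkn1a, the p21 gene that halts the cell cycle, by 2.29 (adjusted p = 0.020), with 12.88, 12.80, 13.74 and 14.56 in otospheres and 11.43, 10.62 and 11.57 in CSE. The death genes Bbc3 (1.48, adjusted p = 0.026) and Bax (1.26, adjusted p = 0.033) were higher by less. For Cdkn1a the authors' qPCR gave no significant difference of CSE from either ESCs or otospheres.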

How the data were processed

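RNA of 11 samples had been labelled with Cy3 and hybridised to 1-colour arrays, from 50 or 100 ng of RNA. The deposited scanner files hold the median signal and median background intensity of each of 62976 spots, written by Feature Extraction 10.7.3.1 and not normalized across arrays, and the authors also deposited a log2 table, background-corrected with limma, quantile-normalized and filtered. The processed-signal intensity in the deposited scanner files served as an alternative. The authors' background method and offset are not given in the sources used here. Here, limma 3.58.1 (R 4.3.3) applied normexp with an offset of 16 and quantile normalization over the 11 arrays. The filter on dim probes asked for a signal 10% over the 95th percentile of the 308 negative control spots, reached on 2 or more arrays, and 47997 of 55681 probes passed. A fit with a mean for each group used eBayes and Benjamini-Hochberg adjustment at 0.05. Simulated data were used to test the steps. A gene not well above background on any array of a group has only a bound, set against the higher of its own signal and the dimmest probe well above background.

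The 35 genes and the other lists were chosen with earlier results of these data known. All 35 were named. From each of the regulator and further-target lists at most the 5 genes with the largest called difference between otospheres and CSE were named, and at most 3 of the brightest from a marker list that moves with a member. The arrays had a median signal intensity between 68 and 116, with a median background between 32 and 38, and the number of arrays limits precision. Replicate numbers were not treated as pairs.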

Additional observations from a re-analysis of the deposited data

Results flagged for a closer look

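Sesn1, Trp73 and Cd82, of the 35 genes, each had 1 otosphere sample standing far from the other samples, by a test of the gap to the nearest sample against the range of the 4, which chance passes in about 1 of 20 groups. Sesn1 was 10.72 in OS3, where the other samples lay between 9.80 and 9.94. Trp73 was 8.41 in OS1-2, where the others lay between 7.52 and 7.67. Cd82 was 15.09 in OS3, where the others lay between 15.43 and 15.49.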

How the results depend on the processing

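Between otospheres and CSE, each of the 17 higher genes and the 1 lower gene kept its direction under all 20 alternatives, and 9 of the higher genes and Sesn1 passed the test in all. Of 20, Mdm2 passed in 19, Psrc1 in 18, Perp in 16, Plk3 in 14, Aen and Epha2 in 13, and Trp53 and Cd82 in 8. For this comparison, leaving out ES1, leaving out ES2 and fitting only the 2 groups compared are the same fit. These alternatives are therefore a single result within each of these tallies. The count of higher genes in otospheres against CSE was 10 to 21 when 1 sample was left out. It was 15 with an offset of 0, 15 with the processed signal, 15 in the deposited log2 table and 23 with every array as a separate sample. Lower genes numbered 1 throughout. Against ESCs, leaving out 1 sample gave 3 to 5 higher and 6 to 9 lower in otospheres, and 2 to 3 higher and 17 to 24 lower in CSE. The medians ran from 1.02 to 1.43, from -0.26 to 0.23 and from -1.70 to -1.30 in the same order. The median for CSE against ESCs was -2.0 with the processed signal scaled to the 75th percentile, which moved the median of all probes there from -0.06 to -0.25, and that of otospheres against ESCs from -0.03 to -0.28. Deviations from the group means correlated at -0.39 to 0.36 between same-numbered arrays, with both signs present. With so few arrays in a group, these values cannot show whether same-numbered arrays share a preparation. With the replicate number as a block and every array as a sample, otospheres had 16 higher genes and 1 lower one against CSE, 5 and 7 against ESCs, and 3 and 19 for CSE against ESCs. The slide block gave 18 higher and 1 lower. The remaining limit is the number of arrays: the ESC group has 2, and slide 2 has 1 CSE sample.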
